A study of Mus musculus with 18 samples.

Results

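Adenylate kinases are enzymes that move a phosphate between adenine nucleotides, turning ATP and AMP into ADP and back. Of the mouse genes *Ak1*, *Ak3*, *Ak4*, *Ak5*, *Ak7*, *Ak9* and the processed pseudogene *Ak3l2-ps*, RNA levels are described here in mouse retinas and in 661W cells that received a normoxia-stable HIF1A. These 7 genes were taken from a table of 78239 genes by their names, with the responses of *Ak4* and *Ak3l2-ps* to the transgene known. The genes were thus selected on measured values, their log2 fold changes between *nsHif1a* and eGFP, and for these 7 genes that contrast is given as a description, with no test. After a filter on low counts 5 of the 7 genes were left in the retina and 4 in the cells. *Ak7* and *Ak9* were below the filter in both, and *Ak5* was below it in the cells.

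The retinal libraries came from mice injected subretinally at postnatal days 29 to 32 with an adeno-associated virus and collected 3 weeks later. In 5 of them the virus carried *nsHif1a* (AAV::*nsHif1a*), a Myc-tagged mouse *Hif1a* with the changes P402A, P577A and N813A that keep the protein stable and active in normoxia, and in 5 it carried eGFP (AAV::eGFP). Both viruses used the mOP promoter, which is rod-specific, so other retinal cells should not make the transgene, and the injection reaches only a part of the retina. The labels give the mice as C57BL/6J, whereas the methods of the study name wild-type 129S6 mice. 661W is a mouse line derived from a retinoblastoma, and its 8 libraries were made 20 h after transfection with *nsHif1a* or eGFP under a CMV promoter, with 4 libraries each. The total count per library was 12898220 to 16167522 for AAV::eGFP, 13723692 to 15813892 for AAV::*nsHif1a*, 13424326 to 17051276 for eGFP cells and 14281793 to 17809585 for *nsHif1a* cells.

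The isozymes differ in where they act. AK1 is cytosolic and abundant in muscle and brain, and AK3 and AK4 are in the mitochondrial matrix, where AK3 uses GTP as phosphate donor. *Ak4* is a known target of hypoxia-inducible factors. AK5 is found mainly in the nervous system, AK7 belongs to motile cilia and sperm tails, and AK9 is a long protein with several kinase domains. A processed pseudogene is a copy of a spliced messenger RNA that was inserted back into the genome.

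*Ak3l2-ps* is such a copy of *Ak4*. On the GRCm39 assembly *Ak4* (ENSMUSG00000028527.20) spans chr4:101276265-101324968 on the plus strand, and *Ak3l2-ps* (ENSMUSG00000081957.6) is annotated as 1 exon at chr2:72464280-72464951, also on the plus strand, with no other gene over it. The annotated pseudogene has 672 bases, the same length as the coding part of the canonical *Ak4* transcript. Aligned without gaps, both differ at 3 bases, which gives an identity of 99.6%. The substitutions, with the *Ak4* base first and positions counted from the first coding base, are G36A, A285G and G378A. All 3 fall on the third position of a codon, and none changes the encoded residue. In the frame of *Ak4*, the pseudogene has 223 codons before the first stop, at codon 224, as *Ak4* does. *Ak4* and *Ak3*, the nearest relatives among the kinases compared, shared 60.4% of their aligned coding bases.

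The stretches around the 3 differences are shown because they are what could tell a read of *Ak4* from a read of its copy; the differing bases are in capitals. Bases 6 to 66 of the coding part hold the first difference, and bases 275 to 388 hold the other two.
*Ak4*, coding bases 6 to 66: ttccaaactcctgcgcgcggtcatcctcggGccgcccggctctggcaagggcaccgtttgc
*Ak3l2-ps*, bases 6 to 66: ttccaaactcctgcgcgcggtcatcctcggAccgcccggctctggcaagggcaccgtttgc
*Ak4*, coding bases 275 to 388: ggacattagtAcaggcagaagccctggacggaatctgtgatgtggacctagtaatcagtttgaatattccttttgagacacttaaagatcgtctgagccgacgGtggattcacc
*Ak3l2-ps*, bases 275 to 388: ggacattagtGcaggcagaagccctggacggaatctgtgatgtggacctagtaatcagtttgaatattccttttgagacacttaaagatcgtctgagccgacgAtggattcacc

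Between the differences the copies are the same over runs of 294, 248, 92 and 35 bases. Cut into all its 50-base words, the pseudogene had 487 of 623 words (78.2%) in common with *Ak4*. For 100-base words the share was 60%. The likeness does not stop at the annotated ends of the pseudogene. It continued for 88 bases before and 872 bases after them, so that chr2:72464192-72465823, 1632 bases, matched bases 119 to 1750 of the canonical *Ak4* transcript with 8 differences. How reads that match both places were assigned is not given in the sources used here, so the counts of *Ak3l2-ps*, and a part of those of *Ak4*, are uncertain.

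**Figure D1:**
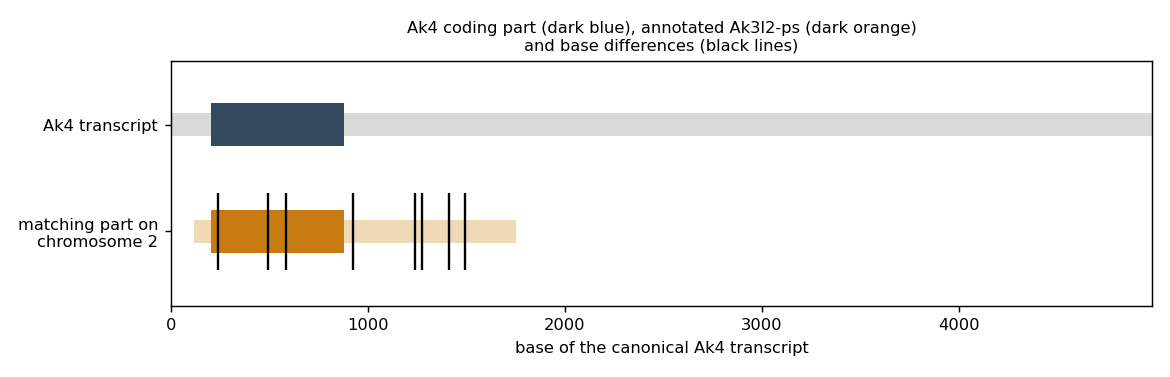
Parts of *Ak4* with a copy on chromosome 2. The x axis gives the base of the canonical *Ak4* transcript; the upper bar is the transcript with its 672 coding bases in dark blue, the lower bar is the matching 1632 bases with the annotated *Ak3l2-ps* in dark orange, and the 8 black lines mark base differences, 3 of them inside the annotated pseudogene.

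The libraries were first checked. Counts on *Hif1a*, which take in the transgene, were 2183 to 2735 in eGFP cells and 17668 to 33418 in *nsHif1a* cells (log2FC 3.26, limma adjusted p = 1.2e-05). In the retina they were 8713 to 11286 for AAV::eGFP and 8565 to 10909 for AAV::*nsHif1a* (log2FC 0.05, limma adjusted p = 0.5), so in the retina this gene gives no check of the labels. The sum over 4 markers shared by rods and cones (*Crx*, *Rcvrn*, *Prom1*, *Guca1a*) was 2367 to 2627 CPM (counts per 1000000 counts of the library, TMM-scaled) in AAV::eGFP and 2278 to 2580 CPM in AAV::*nsHif1a* retinas. The 661W cells held nearly none of them, with 0 to 0.324 CPM in eGFP cells and 0 in *nsHif1a* cells. Of the rod markers, 9 (*Gnat1*, *Pde6a*, *Pde6b*, *Cnga1*, *Nrl*, *Nr2e3*, *Sag*, *Prph2* and *Rom1*) summed to 25568 to 29258 CPM in AAV::eGFP and 20049 to 26558 CPM in AAV::*nsHif1a* retinas, and 4 of the 5 AAV::*nsHif1a* libraries lay below all AAV::eGFP libraries (median log2FC −0.20, 0 called). The 6 microglia markers summed to 24 to 118 CPM and 42.8 to 116 CPM (median log2FC 0.89, 0 called). The part of these markers in the retinal differences was not tested. Of 59 markers of retinal and neighbouring cell types, 55 were tested in the retina and 1, the motile cilia gene *Dnai2*, was called (log2FC −0.55, limma adjusted p = 0.019); of 14 tested in the cells 0 were called. All 5 AAV::*nsHif1a* libraries and AAV::eGFP replicates 1 and 2 had 19492 to 28595 *Xist* counts, while AAV::eGFP replicates 3, 4 and 5 had 1 to 3, with 2701 to 3509 counts on Y-linked genes. The retinal contrasts between the vectors, and their p-values, are thus partly confounded with this *Xist* class. The sum over 6 lens crystallins was 654 to 2853 CPM in AAV::eGFP and 934 to 18916 CPM in AAV::*nsHif1a* retinas. *nsHif1a* cell replicates 1 and 2 stood apart from the other 6 cell libraries on the first principal component, at 45 and 46.6 against −23.7 to −7.31. In whole retina, fewer cells of a type and less RNA per cell cannot be told apart.

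*Ak4* was the kinase that was higher with *nsHif1a* in both systems. In the retina its counts were 582, 672, 854, 667 and 726 in the AAV::eGFP libraries and 1087, 1751, 1325, 1379 and 1635 in the AAV::*nsHif1a* libraries. Scaled to library size these are 47.9 ± 5.4 CPM (SD, n = 5) and 96.9 ± 11.1 CPM (SD, n = 5), and the lowest AAV::*nsHif1a* library, at 81.5 CPM, lay above the highest AAV::eGFP library, at 54.7 CPM. The log2 fold change (log2FC) was 1.02 with 95% limits of 0.83 and 1.22, which is a 2.03-fold difference. It was 1.15 with *Xist* class as a covariate and 1.17 with the level of lens crystallins as one. In 661W cells the counts of *Ak4* were 132, 118, 82 and 83 with eGFP and 522, 384, 746 and 656 with *nsHif1a*. The levels were 6.66 ± 1.43 CPM and 34.7 ± 7.85 CPM (SD, n = 4 each), again without overlap. The log2FC was 2.37 with limits of 1.90 and 2.84, a 5.16-fold difference. Among the *nsHif1a* cells, replicates 1 and 2 were lower, at 29.4 and 27 CPM, than replicates 3 and 4, at 43.6 and 38.9 CPM; replicates 1 and 2 also had less *Hif1a*, at 1222 and 1241 CPM against 1954 and 1825 CPM. The eGFP cells went the other way for *Ak4*, with 7.93 and 7.65 CPM in replicates 1 and 2 and 4.82 and 6.23 CPM in replicates 3 and 4. Taken alone, replicates 1 and 2 gave a log2FC of 1.85 for *Ak4*, and replicates 3 and 4 gave 2.93. Both groups thus enter this gap, and the part of the *Hif1a* level in it was not tested.

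*Ak3l2-ps* followed *Ak4*. Its retinal counts were 60, 63, 99, 110 and 68 for AAV::eGFP and 117, 235, 154, 135 and 186 for AAV::*nsHif1a*, or 5.43 ± 1.28 and 11.1 ± 2.42 CPM (SD, n = 5 each). The groups did not overlap, and the log2FC was 1.09 (SE 0.19). In the cells the counts were 9, 16, 13 and 10 with eGFP and 61, 58, 83 and 84 with *nsHif1a*, or 0.773 ± 0.204 and 4.33 ± 0.722 CPM (SD, n = 4 each). The log2FC there was 2.45 (SE 0.24), also without overlap. The estimates of gene and copy thus differed by less than their SEs in each system. With the pseudogene's counts added to *Ak4* as 1 gene, *Ak4* had a log2FC of 1.03 in the retina and, for the cells, of 2.38.

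Of the counts on *Ak4* and *Ak3l2-ps* together, the pseudogene held 9.35, 8.57, 10.4, 14.2 and 8.56% in the AAV::eGFP libraries, a mean of 10.2% ± 2.33 (SD, n = 5). In the AAV::*nsHif1a* libraries it held 9.72, 11.8, 10.4, 8.92 and 10.2%, a mean of 10.2% ± 1.07 (SD, n = 5). In eGFP cells the shares were 6.38, 11.9, 13.7 and 10.8%, and in *nsHif1a* cells 10.5, 13.1, 10 and 11.4%. The highest retinal library, AAV::eGFP replicate 4, had an exact binomial 95% interval of 11.8 to 16.8%, which lies above the mean of every group. The eGFP cells, with 93 to 141 counts for the pair, had the widest intervals, from 2.96 to 11.8% in replicate 1 to 7.49 to 22.3% in replicate 3; these intervals cover counting error only. Between the eGFP retinas and the eGFP cells, a contrast that did not choose the genes, the mean share differed by −0.485 percentage points (exact permutation test over 126 arrangements, 2-sided, p = 0.81, smallest possible p 0.0079). The *Ak4* level differed 7.91-fold between the same libraries.

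**Figure D2:**
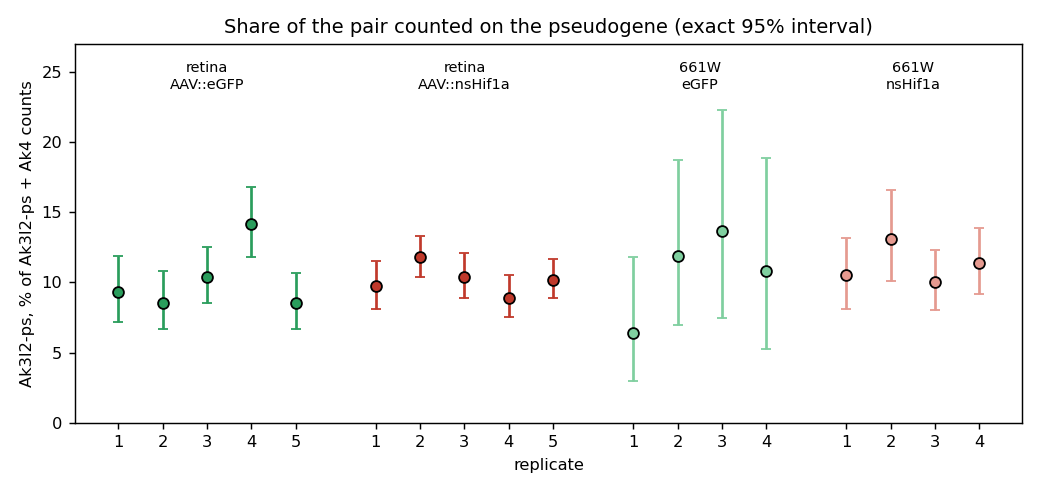
Share of the counts of *Ak4* plus *Ak3l2-ps* that fell on the pseudogene (y axis, percent) in each of the 18 libraries (x axis, by group and replicate), with exact binomial 95% intervals as bars. The points run from 6.38 to 14.2% in all groups, whichever vector the sample received.

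*Ak3*, the other kinase of the mitochondrial matrix, had overlapping levels with and without *nsHif1a*. In the retina it had 575, 625, 968, 696 and 598 counts for AAV::eGFP and 547, 615, 602, 881 and 698 for AAV::*nsHif1a* (47 ± 7.49 and 45.5 ± 8.46 CPM, SD, n = 5 each; log2FC −0.08, SE 0.12). The ranges covered each other, and each group had 1 high library, which also had the highest sum of retinal pigment epithelium markers in its group, 657 and 776 CPM; their part was not tested. In the cells *Ak3* had 1051, 977, 1013 and 845 counts with eGFP and 1125, 951, 971 and 909 with *nsHif1a* (62.4 ± 1.87 and 60.2 ± 5.93 CPM, SD, n = 4 each; log2FC −0.05, SE 0.07).

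*Ak1*, the cytosolic form, had 734 to 940 counts in AAV::eGFP and 825 to 924 in AAV::*nsHif1a* retinas, with a log2FC of 0.04 (SE 0.05). The levels were 58.1 ± 2.25 and 59.9 ± 2.96 CPM (SD, n = 5 each). In the cells it was 135, 138, 148 and 157 CPM with eGFP and 101, 104, 145 and 139 CPM with *nsHif1a*. The log2FC of −0.27 (95% limits −0.52 and −0.03) rested on *nsHif1a* replicates 1 and 2, the same libraries that stood apart on the first component. It was −0.05 without replicate 1 and −0.05 without replicate 2.

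*Ak5*, the form of the nervous system, had 104, 93, 157, 134 and 111 counts in AAV::eGFP and 90, 95, 109, 94 and 97 counts in AAV::*nsHif1a* retinas. The levels were 8.18 ± 1.38 and 6.62 ± 0.682 CPM (SD, n = 5 each), the groups overlapped, and the log2FC was −0.30 (95% limits −0.58 and −0.02). The AAV::eGFP libraries that lacked *Xist* were the high ones, at 9.72, 8.85 and 8.36 CPM, and the other two had 7.95 and 6.01 CPM. With *Xist* class as a covariate the log2FC was −0.05. In the cells *Ak5* had 2 to 16 counts with eGFP and 5 to 15 with *nsHif1a*, too few to compare.

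*Ak7* and *Ak9* were close to the limit of detection. *Ak7* had 0 to 4 counts and *Ak9* 3 to 8 counts in every retinal library. In the cells *Ak7* had 0 to 4 counts, and *Ak9* had 0 counts in all 4 eGFP libraries, which allows up to 3 counts each, and 2, 0, 1 and 3 counts with *nsHif1a*. A difference was not detectable at this depth for either gene. The markers of motile cilia, the structures AK7 is known from, summed to 54.1 to 65.2 CPM in AAV::eGFP and 47.3 to 58.3 CPM in AAV::*nsHif1a* retinas.

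**Figure D3:**
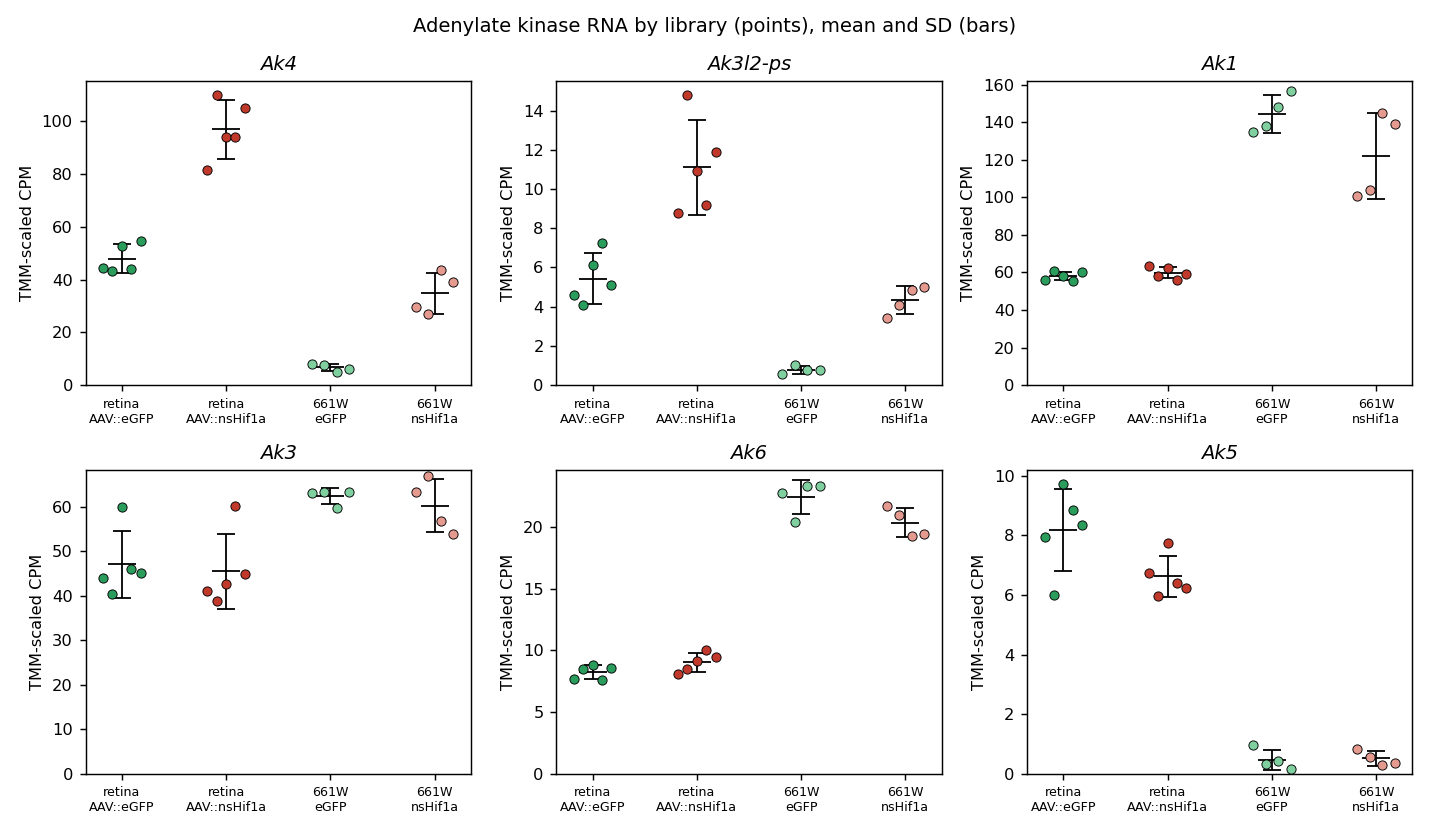
TMM-scaled CPM (y axis, linear from 0; scaled within the retinas and within the cells) of *Ak4*, *Ak3l2-ps*, *Ak1*, *Ak3*, *Ak6* and *Ak5* in each library (points), with the mean and SD of each group as bars. The *nsHif1a* points of *Ak4* and *Ak3l2-ps* lie above all eGFP points of the same system, while those of *Ak1*, *Ak3* and *Ak5* overlap with them.

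By the call rule of the study, applied over all genes, a limma adjusted p under 0.05 and a log2FC beyond 0.5 in either direction, *Ak4* and *Ak3l2-ps* were on the higher side in both systems, 2 of the 5 genes left by the filter in the retina and 2 of 4 in the cells; this is a description of how the genes were selected, not a test of them. Over all genes 1.08% were called higher and 0.912% lower in the retina, and 1.21% higher and 0.0626% lower in the cells; since this contrast chose the genes, nothing is read from the counts. Groups without overlap, as for *Ak4* and *Ak3l2-ps*, were seen for 3.25% (higher) and 2.69% (lower) of all genes tested in the retina, and for 7.51% and 6.11% in the cells. As a share of all counts on the 10 genes of the family, *Ak4* went from 24.1% ± 1.52 to 38.2% ± 3.3 in the retina (SD, n = 5 each). In the cells it went from 1.59% ± 0.343 to 8.45% ± 1.44 (SD, n = 4 each). With *nsHif1a* it was thus the most counted family member in the retina, ahead of *Ak1* at 23.7% ± 2.33, whereas in the cells *Ak1* stayed ahead of it with 29.8% ± 3.78. These shares are not corrected for transcript length. Per kb of canonical transcript *Ak1* was ahead of *Ak4* in AAV::*nsHif1a* retinas, at 28.4 ± 1.41 against 19.5 ± 2.24 CPM per kb (SD, n = 5 each). Such an order depends on the length used.

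**Figure D4:**
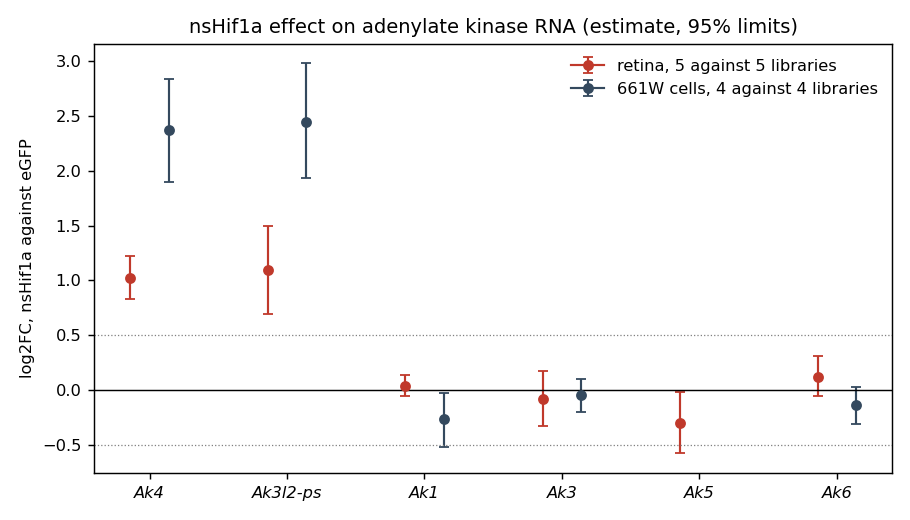
Log2FC of *nsHif1a* against eGFP (y axis) for *Ak4*, *Ak3l2-ps*, *Ak1*, *Ak3*, *Ak5* and *Ak6* (x axis), with 95% limits as bars, in the retina (red, 5 against 5 libraries) and in 661W cells (blue, 4 against 4). Dotted lines mark the call limit of 0.5; *Ak4* and *Ak3l2-ps* lie above it in both systems, at 1.02 and 1.09 for retinas and 2.37 and 2.45 for cells, and the others within it.

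The family has other genes that the selection left out. *Ak6*, which codes for a nuclear protein, had a log2FC of 0.12 in the retina and −0.14 in the cells (limma adjusted p = 0.44 and 0.32). It overlaps *Taf9* on the same strand, and 54.4% of its 50-base words are also in *Taf9*, so its counts are uncertain. *Ak8*, a further cilia-associated kinase, had 4 to 22 counts in the retina and at most 3 in the cells and was not tested.

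Other genes of adenine nucleotides and phosphate transfer were looked at as a list of 53 genes. It held creatine kinases, nucleoside diphosphate kinases and other nucleoside monophosphate kinases, with *Taf9*, which overlaps *Ak6*, counted among the last. AMP-activated protein kinase (AMPK) subunits and their activators, enzymes of AMP removal and synthesis, and mitochondrial carriers were also in it. Not all genes of the list act on AMP. In the retina 48 were tested, 23 were on the higher side, and the median log2FC was 0.00; over all genes 9315 of 18859 were on the higher side, with a median of −0.00. Of the list 1 gene (2.08%) was called higher, against 1.08% of all genes, and 0 were called lower. It was *Adk*, adenosine kinase, which turns adenosine into AMP. *Adk* had 324, 360, 401, 350 and 320 counts for AAV::eGFP and 387, 697, 617, 606 and 743 for AAV::*nsHif1a*, or 24 ± 0.801 and 41.1 ± 7.14 CPM (SD, n = 5 each). AAV::*nsHif1a* replicate 1 was the low one, at 29 CPM, and still above the highest AAV::eGFP library, at 24.8 CPM. The log2FC was 0.78 (SE 0.11, limma adjusted p = 0.0016), and with the *Xist*-positive libraries alone, 5 against 2, it was 0.79 (limma adjusted p = 0.052).

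In 661W cells *Adk* was 26.7 ± 2 CPM with eGFP and 24.6 ± 1.81 CPM with *nsHif1a* (SD, n = 4 each; log2FC −0.11, limma adjusted p = 0.45). The effect of *nsHif1a* on *Adk* was larger in the retina by 0.89 on the log2 scale (SE 0.15, limma adjusted p = 0.0065 for the difference between the systems). Below the fold limit, *Prkab2*, a beta subunit of AMPK, was higher in the retina (log2FC 0.35, limma adjusted p = 0.0029), as was *Guk1*, the guanylate kinase (0.21, limma adjusted p = 0.022). *Nt5e*, the ecto-enzyme that makes adenosine from AMP, was lower (−0.22, limma adjusted p = 0.021). The retinal groups also differed in *Xist* class, and values of *Prkab2*, *Guk1* and *Nt5e* with this class as a covariate are not given here. The catalytic AMPK subunits had log2FCs of −0.03 (*Prkaa1*) and −0.01 (*Prkaa2*), and the ADP/ATP carrier *Slc25a4* had 0.02. *Ckb*, the brain creatine kinase, had 0.03, and *Hprt1*, which salvages purine bases, had 0.04.

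In the cells 41 genes of the list were tested, 9 were on the higher side, and the median log2FC was −0.08; over all genes 7936 of 15962 were on the higher side, with a median of −0.00. Of the list 1 gene (2.44%) was called higher, against 1.21% of all genes, and 0 were called lower. It was *Cmpk2*, a mitochondrial UMP-CMP kinase known as an interferon-induced gene. It had 177, 175, 229 and 232 CPM with eGFP and 413, 412, 289 and 313 CPM with *nsHif1a*, so that *nsHif1a* replicates 1 and 2 were the high ones. The log2FC was 0.82 (SE 0.14, limma adjusted p = 0.023) and was lost with the replicate number as a block (0.76, limma adjusted p = 0.077). In replicates 3 and 4 alone it was 0.39, and without eGFP replicate 1 or 2 the call was lost (0.69 each, limma adjusted p = 0.063 and 0.059). In the retina *Cmpk2* had a log2FC of −0.22 (limma adjusted p = 0.52). *Ada*, adenosine deaminase, and *Slc25a5*, an ADP/ATP carrier, were lower in the cells but within the fold limit (log2FC −0.31 and −0.26, limma adjusted p = 0.03 and 0.048). *Nme1*, a nucleoside diphosphate kinase, passed in neither system (0.16 in the retina, −0.35 in the cells, limma adjusted p = 0.067 and 0.053), though the difference between the systems did (0.48, SE 0.09, limma adjusted p = 0.015).

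The levels without *nsHif1a* were compared between the eGFP retinas and the eGFP cells, scaled together. Tissue and experiment cannot be told apart in this contrast, and most genes differed: 45.7% of 19731 genes were called higher in the retina and 35.4% lower. Of the 5 members left by the filter 3 passed the call rule as higher in the retina and 1 as lower. *Ak5* and *Ak3l2-ps* had only 2 to 16 and 9 to 16 counts in the eGFP cells. Both were left by the filter through the retinal libraries, where they are higher. Their values are thus a description, given without p-values, and *Ak3l2-ps* may share reads with *Ak4*. *Ak4* was higher in the retina (log2FC 2.98, 7.91-fold, limma adjusted p = 1.4e-09). The log2FC was 2.89 (7.43-fold) for *Ak3l2-ps* and 4.38 for *Ak5*. *Ak1* was lower in the retina (−1.19, limma adjusted p = 1.4e-10). *Ak3* differed little (−0.31, limma adjusted p = 0.0031, within the fold limit). Outside the selection *Ak6* was lower in the retina (−1.32, limma adjusted p = 1.0e-08). With *nsHif1a*, *Ak4* reached 27 to 43.6 CPM in the cells, against 43.4 to 54.7 CPM in AAV::eGFP retinas, each scaled within its own system.

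Per length of the canonical transcript, the order of the genes given here in AAV::eGFP retinas was *Ak1* (28.8 CPM per kb), *Ak3* (16.5), *Ak4* (10), *Ak3l2-ps* (8.44), *Ak6* (7.04), *Ak5* (0.804) and *Ak8* (0.344), followed by *Ak7* and *Ak9*. The library ranges of *Ak4* and *Ak3l2-ps*, of *Ak3l2-ps* and *Ak6*, and of *Ak5* and *Ak8* overlapped. The ranges alone thus do not set the order of these neighbours, and their differences within libraries were not tested. In eGFP cells the order was *Ak1* (65.9 CPM per kb), *Ak3* (20.2), *Ak6* (17.7), *Ak4* (1.29), *Ak3l2-ps* (1.11) and *Ak5* (0.042). There *Ak4* and its copy overlapped, as did *Ak5*, *Ak7*, *Ak8* and *Ak9*. The order depends on the length used: per kb of the merged exons of the transcripts in the basic GENCODE set, *Ak1* came after *Ak3l2-ps* and *Ak3* in the retina, at 6.99 CPM per kb.

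**Figure D5:**
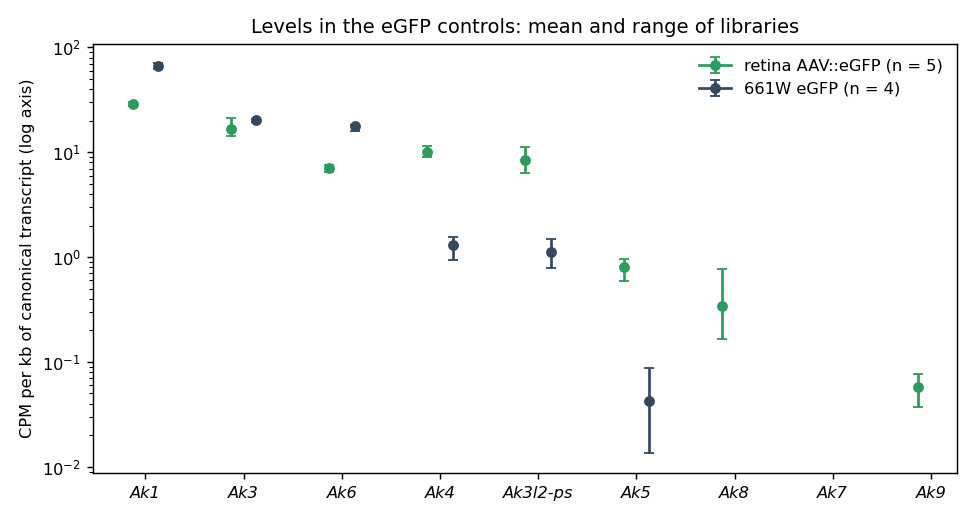
Level in the eGFP controls as CPM per kb of canonical transcript (y axis, log scale) for 9 genes of the family (x axis); points are means and bars run from the lowest to the highest library, in retinas (green, n = 5) and 661W cells (blue, n = 4). Genes with a library at 0 are left out; *Ak1* is higher in the cells, at 65.9, and *Ak4* and *Ak3l2-ps* in the retina, at 10 and 8.44.

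HIF1 binds DNA at the letters ACGTG or GCGTG. In the window from 250 bases before to 50 after the canonical start, searched on both strands, *Ak4* had no ACGTG and 2 GCGTG. They are shown because *Ak4* was the responding kinase, each in 30 bases of the GRCm39 plus strand with the motif in capitals. The first is on the minus strand and so reads as its reverse complement, CACGC.
*Ak4*, chr4:101276399-101276428: gcctggctccggaCACGCcgggaggggaga
*Ak4*, chr4:101276425-101276454: gagaggagggggcgcggcggcggtaGCGTG

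Of 21593 promoters of protein-coding genes 37% held GCGTG, 20.7% held ACGTG and 48.1% held either, so such a match is common. None of the windows of the family genes given here held ACGTG. *Ak1*, *Ak3* and *Ak5* held neither form, *Ak7* had 3 GCGTG, *Ak9* 1, *Ak8* 1 and *Ak6* 5. The window at *Ak3l2-ps* had 1 GCGTG, 73 to 69 bases before its annotated start, which is inside the stretch that matches the *Ak4* transcript and begins 88 bases before that start. A match is a description of the letters and not a binding site.

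The genes whose log2 CPM was most like that of *Ak4* were named by the mean of Pearson's r over the 10 retinal and over the 8 cell libraries, among 14077 genes. They were *Slc16a3*, a lactate exporter (r = 0.983 over retinas, 0.995 over cells), *Slc2a3*, a glucose transporter (0.990 and 0.981), *Smtnl2* (0.974 and 0.996), *Jmjd6* (0.985 and 0.983) and *Pfkfb3*, an activator of glycolysis (0.976 and 0.992). *Ak3l2-ps* was at rank 28 (0.915 and 0.965). *Ak1*, *Ak3* and *Ak6* had a mean r between −0.226 and −0.070. In each system the points share the split into *nsHif1a* and eGFP libraries and the scaling, so a high r follows for genes that differ between these groups.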

How the data were processed

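RNA was sequenced from 10 mouse retinas and 8 samples of 661W cells as stranded, paired-end mRNA libraries. The authors aligned the reads to GRCm39 with Rsubread, used featureCounts with antisense reads only to count them by gene, and deposited raw counts in 1 table for the retinas and 1 for the cells. Their setting for reads that match several places is not given in the sources used here. Groups and replicate numbers were taken from the sample titles. Whether libraries came from separate cultures is not stated, so p-values measure the spread between these samples.

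From the counts, genes were filtered with filterByExpr (minimum count 10) in edgeR 4.0.16, scaled by TMM, and fitted with voomWithQualityWeights and limma 3.58.1 in R 4.3.3, retinas and cells apart, as in the methods of the study. This left 18859 genes in the retina, 15962 in the cells and 19731 in the fit of the eGFP retinas against the eGFP cells. P-values were adjusted by Benjamini-Hochberg over all genes fitted, and a call needed an adjusted p under 0.05 and a log2FC beyond 0.5. Differences between the systems were tested as an interaction in a fit over 18 libraries and 20999 genes. CPM are TMM-scaled. The fits were tested on simulated data.

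The members and lists were chosen with earlier results of these data known. Named are the members, other *Ak* genes (1 is not reported here), genes sharing 10% or more of the 50-base words of a family gene, list genes called in either system with examples of those not called, and the 5 genes most like *Ak4*; *Nme1*, *Ada*, *Prkab2*, *Guk1*, *Nt5e* and *Slc25a5* were singled out after their values were seen. Positions and transcripts are from GRCm39 and GENCODE, which matched 78168 of 78239 gene identifiers; sequences were aligned with Biopython 1.88.

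The replicate numbers in the titles are shared by *nsHif1a* and eGFP. In the cells, deviations of same-numbered libraries from their group means correlated at 0.238, 0.227, 0.259 and 0.269. There eGFP replicates 1 and 2 correlated most with *nsHif1a* replicates 2 and 1, at 0.287 and 0.246, and replicates 3 and 4 with the same number. The main fits hold no term for the replicate number, so their p-values take no account of such pairs or sets. Other settings tried were DESeq2 1.42.0 and the quasi-likelihood test of edgeR, other scalings, filters and fold limits, a replicate block, covariates and leaving out each library; the covariates for lens markers and for the replicate sets were added after the data were seen.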

Additional observations from a re-analysis of the deposited data

Results flagged for a closer look

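Of 40 sets of *Ak* values by group that were searched for a library far from the others, 3 had one, and chance gives about 1 in 20. All 3 were of *Ak3*. It was high in AAV::eGFP replicate 3, at 59.9 CPM against 40.4 to 46 CPM in the other 4 libraries, and in AAV::*nsHif1a* replicate 4, at 60.1 CPM against 38.7 to 44.8 CPM. In the cells it was low in eGFP replicate 3, at 59.6 CPM against 63.1 to 63.4 CPM. Without AAV::*nsHif1a* replicate 4 the log2FC of *Ak3* in the retina was −0.18. Both retinal libraries had the highest sum of 5 markers of the retinal pigment epithelium (RPE) in their group, 657 CPM against 42.2 to 280 CPM in the other AAV::eGFP libraries and 776 CPM against 44.7 to 339 CPM in the other AAV::*nsHif1a* libraries; the part of these markers in the values of *Ak3* was not tested.

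For 2 genes outside the selection, the *nsHif1a* effect differed between the retina and 661W cells: *Adk*, by 0.89 on the log2 scale (limma adjusted p = 0.0065), and *Nme1*, by 0.48 (limma adjusted p = 0.015). Over all 20999 genes, 489 passed the same test.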

How the results depend on the processing

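For the members, whose selection used the *nsHif1a* contrast, the values under other settings are a description. With the counts of the pair added up, the number of members past the call rule was 1 in each system and, for the eGFP retina against the eGFP cells, 2. For *Ak4* the log2FC ran from 0.95 to 1.17 in the retina. In the cells it was 1.85 in replicates 1 and 2 alone and 2.93 in replicates 3 and 4 alone, and 2.13 to 2.61 with 1 library left out. Of the list, 1 gene was called higher in the retina, 0 at a log2FC above 1, 0 in *Xist*-positive libraries alone, and 1 to 2 with 1 library left out; 1 gene was called lower with *Xist* class as a covariate. In the cells 1 list gene was called higher, 0 at a log2FC above 1, 0 with the replicate block, 6 in replicates 1 and 2 alone, 0 in replicates 3 and 4 alone, and 0 to 5 with 1 library left out; 0 to 1 were called lower. Without a filter, 5 members were called higher in the retina than in the cells. The difference in the pseudogene's share changed sign to 0.513 without eGFP cell replicate 3 and ran from −1.92 to 0.513 over the libraries left out. Apart from the fewer libraries or genes that a setting leaves, the cause was not tested. The replicate block changed no other call than *Cmpk2*, whose loss takes the list count to 0; in the cells replicates 1 and 2 also matched each other across groups (0.287 and 0.246). In the retina same-numbered libraries did not pair (correlations −0.148 to 0.138), and with the block the log2FC of *Ak4* was 1.01. Depth limits *Ak7*, *Ak8* and *Ak9*, and *Ak5* in the cells.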
